A study of Sus scrofa with 23 samples.

Results

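PDHX (ENSSSCG00000013298), ALDOC (ENSSSCG00000017759) and UGP2 (ENSSSCG00000008368) were examined as 3 glucose-use enzymes among the 25322 genes counted in pig backfat, the subcutaneous fat of the back. The 3 genes were selected on measured differences in expression, since the study had listed them as different between the control diet and a diet with cDDGS in these same pigs: PDHX for group I vs group II and for group I vs all pigs given cDDGS, ALDOC for group I vs group III, and UGP2 for group I vs group IV. cDDGS are corn dried distillers grains with solubles, the residue of grain after ethanol production. The differences from group I are therefore given below as a description, with no test, and they are no independent support for an effect of the diet.

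RNA-seq was done on backfat of 23 crossbred fatteners, the offspring of Polish Landrace × White Large Polish sows and a Duroc × Pietrain boar, all kept in individual pens. Group I (-cDDGS+rapeseed oil, the control) had 7 pigs, group II (+cDDGS+rapeseed oil) 6, group III (+cDDGS+beef tallow) 5 and group IV (+cDDGS+coconut oil) 5; the sample labels write DDGS for cDDGS. All diets had the same energy and nitrogen content, but the control diet held more starch and less crude fat and fiber than the diets with cDDGS. Groups I and II had the same added oil, whereas groups III and IV differed from group I in both cDDGS and the added fat. Females (gilts) and males (barrows) numbered 4 and 3 in group I, 3 and 3 in group II, 2 and 3 in group III, and 3 and 2 in group IV. The age of the pigs is not given in the sources used here.

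The 3 enzymes act at separate steps of glucose use. Aldolase splits fructose 1,6-bisphosphate into triose phosphates in glycolysis, and ALDOC encodes the isoform best known from brain. PDHX encodes component X, also called the E3-binding protein, which anchors dihydrolipoamide dehydrogenase to the core of the pyruvate dehydrogenase complex, the mitochondrial enzyme that turns pyruvate into acetyl-CoA. UGP2 encodes UDP-glucose pyrophosphorylase, which makes UDP-glucose, the glucose donor for glycogen and the precursor of UDP-glucuronate. In fat cells acetyl-CoA from glucose can feed fatty acid synthesis, and the triose phosphates can supply the glycerol backbone of triglycerides.

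Between 2437172 and 7979426 reads per pig (median 4717511) were assigned to genes. Levels are given in CPM, counts per 1e6 gene reads after TMM normalization over the 23 pigs. As no gene lengths were used, levels were not compared between genes. The share of uniquely mapped reads that fell outside annotated genes was 56.8% ± 2.53 (SD, n = 7) in group I, 62.5% ± 5.81 (n = 6) in group II, 56.8% ± 4.0 (n = 5) in group III and 63.0% ± 5.05 (n = 5) in group IV. This share was thus higher in groups II and IV than in groups I and III, and its relation to each gene is given further on. The fat cell markers with an identifier, PLIN1 and CIDEC, were expressed in every pig, with median summed levels of 1641, 1421, 1417 and 1475 CPM in groups I to IV. The summed level of the macrophage markers CD68, MRC1 and CSF1R had medians of 56.9, 115, 81.3 and 79.7 CPM in the same order. The skeletal muscle marker ACTA1 ranged from 0.885 to 1542 CPM over the pigs, with overlapping ranges in all 4 groups. Its medians were 62.6, 66.8, 222 and 68.5 CPM in groups I to IV, the highest in group III. In a bulk sample, fewer cells of a type cannot be told apart from less RNA per cell, and the part of these markers in the differences below was not tested.

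PDHX was highest in the control pigs and lowest in group II. In group I the levels were 62.6 CPM in pig 1, 114 in pig 2, 89.0 in pig 3, 127 in pig 5, 99.4 in pig 6, 84.9 in pig 7 and 103 in pig 8. In group II they were 73.2 CPM in pig 17, 56.0 in pig 19, 73.5 in pig 20, 44.9 in pig 21, 73.7 in pig 22 and 63.8 in pig 24. Of the control pigs, 6 were above every pig of group II, and pig 1 fell inside the range of group II. In group III the levels were 67.0 CPM in pig 41, 84.4 in pig 43, 80.2 in pig 45, 64.7 in pig 46 and 90.0 in pig 48. In group IV they were 51.5 CPM in pig 49, 66.7 in pig 52, 86.1 in pig 53, 77.1 in pig 54 and 61.5 in pig 55. All 16 pigs given cDDGS lay below the group I median, but only 4 lay below pig 1, the lowest control pig.

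The PDHX mean was 97.2 CPM ± 21.0 (SD, n = 7) in group I, 77.3 ± 11 (n = 5) in group III, 68.6 ± 13.5 (n = 5) in group IV and 64.2 ± 11.8 (n = 6) in group II. In this order, the neighbouring groups III and IV differed by less than the SD of either group, as did groups IV and II. On the log2 scale, where a negative value means a lower level with cDDGS, the change from group I was -0.60 (SE 0.16) in group II, -0.33 (SE 0.16) in group III and -0.50 (SE 0.17) in group IV. For the 16 pigs of groups II, III and IV combined it was -0.48 (SE 0.12). These comparisons share the control pigs, and the values for groups II and for the combined pigs chose the gene. With the share of reads outside genes as a covariate, the change in group II was -0.32, and with the RNA integrity number (RIN) as a covariate it was -0.68.

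ALDOC was higher in the control pigs than in every pig of group III. In group I the levels were 626 CPM in pig 1, 749 in pig 2, 550 in pig 3, 766 in pig 5, 729 in pig 6, 742 in pig 7 and 587 in pig 8. In group III they were 435 CPM in pig 41, 512 in pig 43, 483 in pig 45, 356 in pig 46 and 465 in pig 48. The ranges of these groups did not overlap, which is part of how the gene came to be chosen. The share of all genes that separated in this way was not counted, so the separation cannot be called unusual. In group II the levels were 406 CPM in pig 17, 307 in pig 19, 641 in pig 20, 665 in pig 21, 385 in pig 22 and 351 in pig 24. In group IV they were 298 CPM in pig 49, 415 in pig 52, 845 in pig 53, 380 in pig 54 and 575 in pig 55. Groups II and IV were thus spread more widely than group III: pigs 20 and 21 of group II were inside the control range, and pig 53 of group IV had the highest ALDOC level of all 23 pigs.

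The ALDOC mean was 678 CPM ± 88.2 (SD, n = 7) in group I, 503 ± 216 (n = 5) in group IV, 459 ± 154 (n = 6) in group II and 450 ± 59.6 (n = 5) in group III. The log2 differences between the 3 groups with cDDGS were smaller than their SE, so that no order among these groups can be read. They were -0.02 (SE 0.20) for group III minus group II, 0.12 (SE 0.27) for IV minus II and 0.16 (SE 0.24) for IV minus III. The log2 change from group I was -0.57 (SE 0.18) in group II, -0.59 (SE 0.13) in group III, -0.43 (SE 0.21) in group IV and -0.53 (SE 0.16) in the 16 pigs combined. Of these 16 pigs, 15 lay below the control median and 12 below the lowest control pig. The value for group IV was -0.70 without pig 53, and -0.13 with the share of reads outside genes as a covariate.

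UGP2 was lowest in group IV, the group with coconut oil. In group I the levels were 42.0 CPM in pig 1, 53.2 in pig 2, 41.1 in pig 3, 52.3 in pig 5, 51.3 in pig 6, 41.6 in pig 7 and 57.3 in pig 8. In group IV they were 27.7 CPM in pig 49, 29.4 in pig 52, 36.8 in pig 53, 29.7 in pig 54 and 35.1 in pig 55. The 5 pigs of group IV lay below all 7 control pigs, in the contrast that chose the gene. Here too, the share of all genes with such a separation was not counted. In group II the levels were 46.7 CPM in pig 17, 30.0 in pig 19, 35.4 in pig 20, 39.7 in pig 21, 39.9 in pig 22 and 40.4 in pig 24. In group III they were 31.6 CPM in pig 41, 41.9 in pig 43, 49.7 in pig 45, 41.2 in pig 46 and 47.0 in pig 48. In group II, 5 of 6 pigs lay below the lowest control pig, whereas in group III only pig 41 did.

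The UGP2 mean was 48.4 CPM ± 6.66 (SD, n = 7) in group I, 42.3 ± 6.94 (n = 5) in group III, 38.7 ± 5.58 (n = 6) in group II and 31.8 ± 3.95 (n = 5) in group IV. Groups I and III differed by less than the SD of either, as did groups III and II. The log2 change from group I was -0.32 (SE 0.13) in group II, -0.19 (SE 0.13) in group III, -0.60 (SE 0.13) in group IV and -0.36 (SE 0.11) in the 16 pigs combined. Group IV also lay 0.29 (SE 0.14) below group II and 0.41 (SE 0.14) below group III on the log2 scale, both given without a test because the low level of group IV chose the gene. The value for group III vs group I was -0.11 without pig 41, and that for group IV vs group III was -0.23 with the share of reads outside genes as a covariate.

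**Figure D1:**
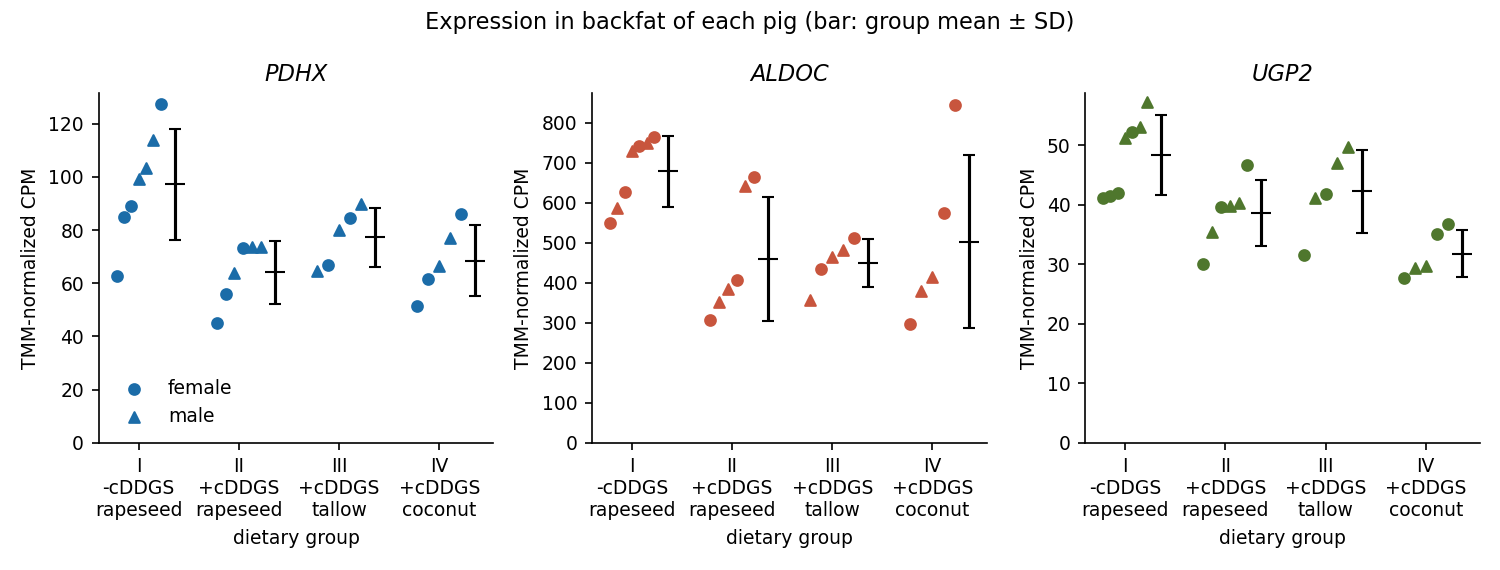
TMM-normalized CPM of PDHX, ALDOC and UGP2 (linear axes from 0) in each pig, by dietary group, with females as circles and males as triangles; the black bars are the group mean ± SD (n = 7, 6, 5 and 5). All 5 pigs of group III lie below group I for ALDOC and all 5 of group IV lie below group I for UGP2, while pig 53 of group IV has the highest ALDOC level, 845 CPM. The share of all genes with such a separation was not counted.

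Tests were kept to comparisons that the choice of the genes did not use, and none passed an adjusted p of 0.05 in edgeR's quasi-likelihood test with Benjamini-Hochberg adjustment over all genes. PDHX in group IV differed from group III by -0.17 on the log2 scale (SE 0.15, 95% interval -0.50 to 0.17, edgeR adjusted p = 0.997), and a two-sided exact permutation over the 252 regroupings gave p = 0.262. Leaving out each pig moved this difference between -0.26 (without pig 53) and -0.08 (without pig 49). ALDOC in group IV differed from group II by 0.12 (SE 0.27, interval -0.46 to 0.70, edgeR adjusted p = 0.993), with an exact permutation p = 0.76 over 462 regroupings. Without pig 53 this ALDOC difference changed sign, to -0.14, and without pig 49 it was 0.26. UGP2 in group III differed from group II by 0.14 (SE 0.14, interval -0.17 to 0.44, edgeR adjusted p = 0.952), with an exact permutation p = 0.396 over 462 regroupings. With the share of reads outside genes as a covariate, it was -0.0177, and it ran from 0.07 (without pig 45) to 0.21 (without pig 41) when each pig was left out. A p that misses the limit does not show that the groups were alike, and each interval spans values on both sides of 0.

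**Figure D2:**
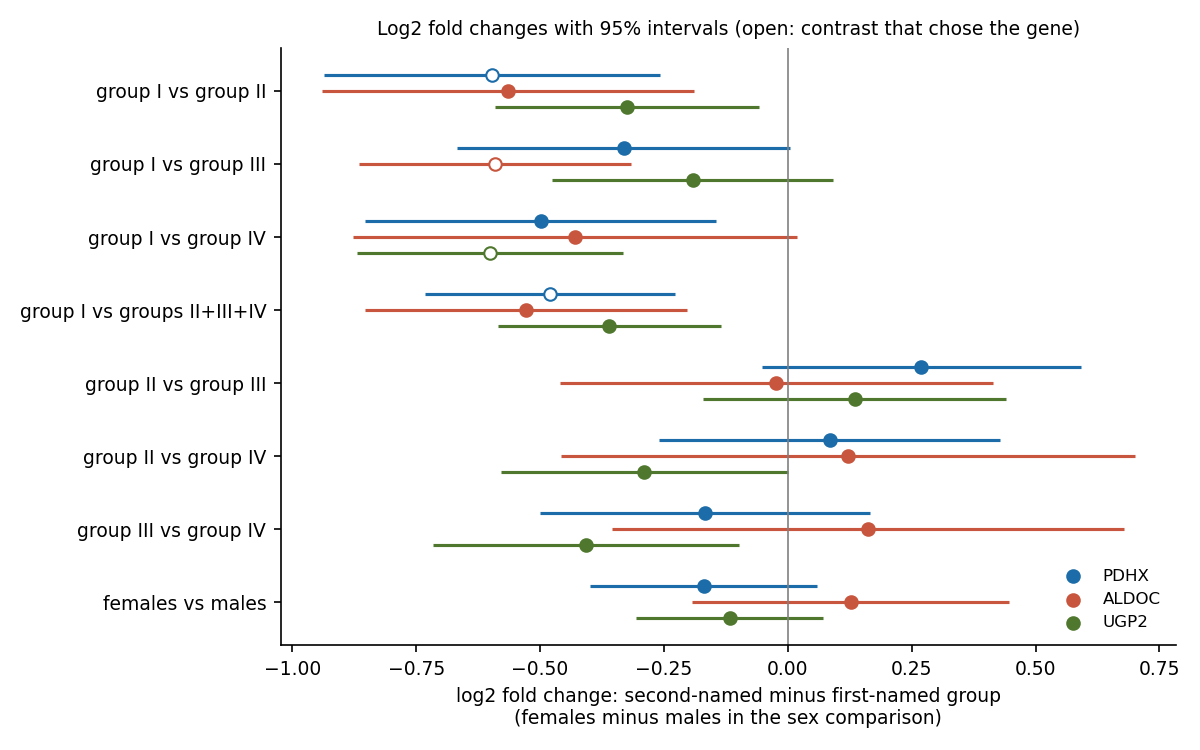
Log2 fold changes of PDHX, ALDOC and UGP2 in 8 comparisons, with 95% intervals from edgeR as lines; positive values mean a higher level in the second-named group, or in females. Open circles mark the contrasts that chose the gene. Tests were run only for PDHX in group III vs group IV, ALDOC in group II vs group IV, UGP2 in group II vs group III, and each gene between the sexes. All other intervals, those of the open circles among them, are a description, and whether they reach 0 is not a test. All 12 values against group I lie below 0, between -0.60 and -0.19. They share the control pigs, the combined values reuse the pigs of the single groups, and the genes were chosen on such differences.

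The 3 genes were also compared between the 12 females and 11 males, a contrast that did not choose them. PDHX was lower in females by a log2 value of -0.17 (SE 0.11, 95% interval -0.40 to 0.06, edgeR adjusted p = 0.428). The mean PDHX level in group I was 91.0 CPM ± 26.8 (SD) in 4 females and 105.6 ± 7.49 in 3 males, and with cDDGS it was 65.6 ± 15.0 in 8 females and 73.7 ± 8.83 in 8 males. ALDOC differed by 0.13 (SE 0.16, interval -0.19 to 0.45, edgeR adjusted p = 0.698), a value that ran from 0.04 (without pig 53) to 0.21 (without pig 20) when each pig was left out. Its mean was 671 CPM ± 101 in control females and 688 ± 88.1 in control males, against 505 ± 186 in females and 435 ± 96.3 in males given cDDGS. UGP2 differed by -0.12 (SE 0.09, interval -0.31 to 0.07, edgeR adjusted p = 0.516), and by -0.07 without pig 41. The 3 lowest control pigs for UGP2 were females, with means of 44.3 CPM ± 5.40 in control females and 53.9 ± 3.04 in control males, and of 36.2 ± 6.41 and 39.1 ± 7.33 in females and males given cDDGS. In each of the 3 genes, the mean level of both sexes was thus lower with cDDGS than without it, a difference that the choice of the genes used. Over all genes, edgeR called 0.954% of 10276 tested genes between the sexes at adjusted p under 0.05 and a fold change above 1.3.

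Within a dietary group, pigs with more PDHX also had more UGP2. The deviations of each pig from its group mean, on the log2 scale, were correlated between PDHX and UGP2 with Pearson's r = 0.55 (n = 23, two-sided permutation within groups p = 0.00886, Benjamini-Hochberg adjusted over 9 relations 0.0399) and Spearman's rho = 0.60 (permutation p = 0.00616, adjusted 0.0218). Without the 2 pigs farthest from the median of PDHX, r was 0.63. With deviations taken from the means of diet and sex together r was 0.61. With the share of reads outside genes removed from both genes it was 0.38, and neither value was tested. The share of all genes correlated as strongly with PDHX or UGP2 was not counted, so the relation cannot be called particular to these enzymes. The relations of ALDOC did not pass the adjusted limit. Its r with PDHX was 0.29 (permutation p = 0.221, adjusted 0.332) and rho 0.35 (permutation p = 0.128, adjusted 0.229), while r was 0.58 without the 2 pigs farthest from the median of PDHX. Its r with UGP2 was 0.39 (permutation p = 0.0683, adjusted 0.123) and rho 0.32 (permutation p = 0.153, adjusted 0.229), with r = 0.32 without the 2 pigs farthest from the median of ALDOC.

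Both PDHX and UGP2 were lower in libraries with more reads outside genes. For PDHX, r with this share within groups was -0.49 (n = 23, permutation p = 0.0235, adjusted 0.0706), which missed the adjusted limit, and rho was -0.58 (permutation p = 0.00727, adjusted 0.0218). For UGP2, r was -0.58 (permutation p = 0.00586, adjusted 0.0399) and rho -0.65 (permutation p = 0.00173, adjusted 0.0156). For ALDOC, r was -0.22 (permutation p = 0.432, adjusted 0.556) and rho -0.22 (permutation p = 0.382, adjusted 0.491). Without the 2 pigs farthest from the median share, r was -0.56 for PDHX, -0.69 for UGP2 and -0.36 for ALDOC. None of the relations with RIN, the RNA integrity number, passed the adjusted limit. For PDHX, r with RIN was 0.43 (permutation p = 0.0597, adjusted 0.123) and rho 0.43 (permutation p = 0.0566, adjusted 0.127). For ALDOC, r was 0.12 (permutation p = 0.57, adjusted 0.584) and rho 0.16 (permutation p = 0.457, adjusted 0.514), and for UGP2 r was 0.13 (permutation p = 0.584, adjusted 0.584) and rho 0.07 (permutation p = 0.758, adjusted 0.758). Without the 2 pigs farthest from the median RIN, r was 0.51, 0.20 and 0.30 for PDHX, ALDOC and UGP2.

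As groups II and IV had the larger shares of reads outside genes, the changes from group I were fitted again with this share as a covariate. For PDHX they were then -0.32, -0.32 and -0.34 in groups II, III and IV. For ALDOC they were -0.58, -0.59 and -0.13, and for UGP2 -0.18, -0.20 and -0.44, in the same order. All 9 values stayed below 0, those of PDHX and UGP2 in groups II and IV were closer to 0 than without the covariate, and that of ALDOC in group IV was closest to 0. With RIN as the covariate, the values given next were farther from 0 than without a covariate. PDHX was then at -0.68, -0.43 and -0.52 in groups II, III and IV, and ALDOC at -0.60 and -0.62 in groups II and III. The RIN values of ALDOC in group IV and of UGP2 in single groups are not given here.

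**Figure D3:**
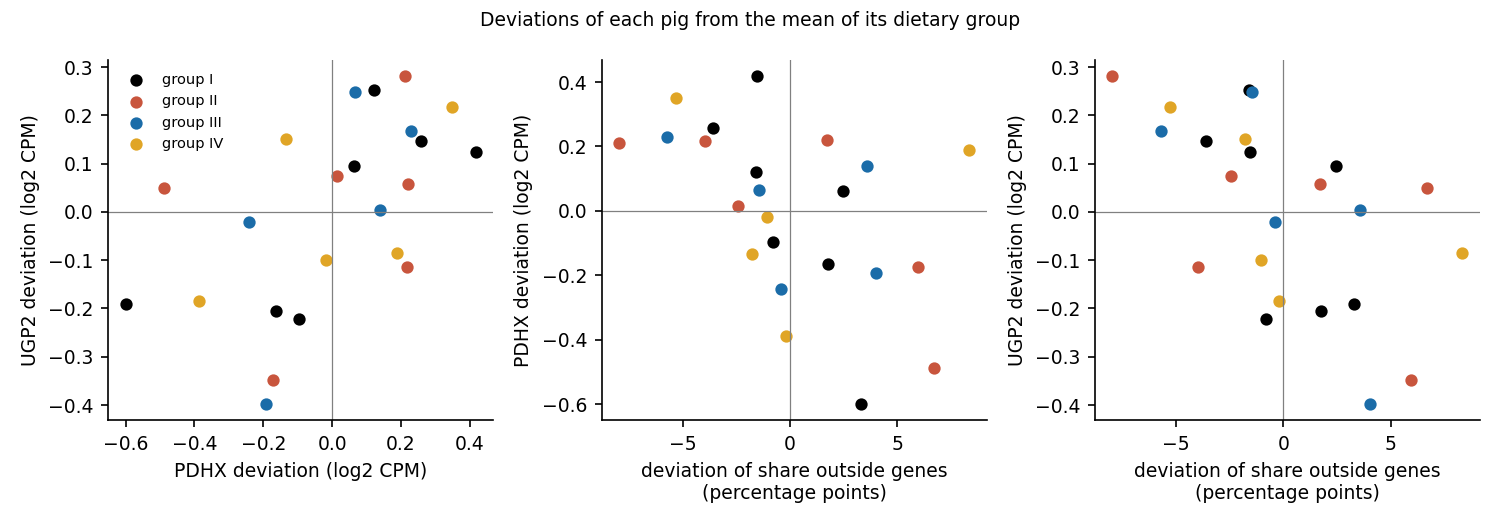
Deviations of each of the 23 pigs from the mean of its dietary group: UGP2 against PDHX (log2 CPM, left), and PDHX (middle) and UGP2 (right) against the share of reads outside genes in percentage points. Each point is a pig, coloured by group; the r values are 0.55, -0.49 and -0.58.

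The genes with the most similar levels over the 23 pigs were named for each enzyme from 7799 genes with a symbol, as a description that holds both diet and library differences. PDHX was most like DNAJC19 (rho = 0.87), which encodes a protein of the mitochondrial inner membrane, followed by SECISBP2L (0.85), SLC1A3, a glutamate transporter (0.84), AIFM1, a mitochondrial flavoprotein (0.84), and EDEM3 (0.82). ALDOC was most like NEK9, a kinase of cell division (0.95), then ST6GALNAC4 (0.87), PPP5C (0.85), RRAS (0.84) and PPP2R1A, a scaffold subunit of protein phosphatase 2A (0.84). UGP2 was most like GAPDH, the glycolytic glyceraldehyde 3-phosphate dehydrogenase (0.81), then SRP72 (0.80), LRPPRC, which binds mitochondrial mRNA (0.80), APIP (0.79) and UBQLN1 (0.79). Among the enzymes themselves rho was 0.56 for PDHX and ALDOC, 0.69 for PDHX and UGP2 and 0.49 for ALDOC and UGP2.

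The other genes of glucose use were taken from a list of 82 genes, of which 68 had an identifier in the count tables. In none of the 8 comparisons did edgeR call a gene of this list at adjusted p under 0.05 with a fold change above 1.3. The list includes genes that the study had itself found different in these pigs, such as HK1 and FBP2, so its direction is not independent evidence. Over all genes edgeR called 0.0291% of 10323 tested genes in group I vs group II and 0% in group I vs group III (10423 tested), group I vs group IV (10388) and group I vs the combined groups (10749). The fits of group II vs group III, group II vs group IV and group III vs group IV also called 0%. DESeq2, at the same limits, called 1.15%, 0.102%, 1.57% and 1.62% of all genes in the 4 comparisons with group I, and from the list it called HK1 lower in group II, and GAPDH lower and FBP2 higher in group IV.

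In group I vs group II, 14 of the 55 list genes tested were lower with cDDGS at an unadjusted p under 0.05 and 0 were higher. This was 25.5% of the list, against 13.0% of all genes tested, which were split almost evenly by direction (676 higher and 662 lower). The median log2 change of the list was -0.25, against 0.003 for all genes, and 45 of the 55 genes had a negative value. In group I vs group III, 5 of 56 were lower and 1 was higher (10.7%, against 7.96% of all genes), with a median of -0.15. In group I vs group IV, 6 of 56 were lower and 2 higher (14.3%, against 14.2% of all genes), with a median of -0.17. For the combined groups 16 of 56 were lower and 1 higher (30.4%, against 15.8% of all genes), with a median of -0.14. The count of lower genes depended on single pigs. It ranged from 10 to 17 in group I vs group II when each pig was left out. In group I vs group III it was 2 without pig 8, 3 without pigs 5 or 45, 8 without pig 7, 9 without pig 1 and 15 without pig 48. In group I vs group IV it was 2 without pigs 5 or 49 and 9 without pigs 1 or 52, and in the combined comparison it ranged from 10 (without pigs 5 or 8) to 19.

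**Figure D4:**
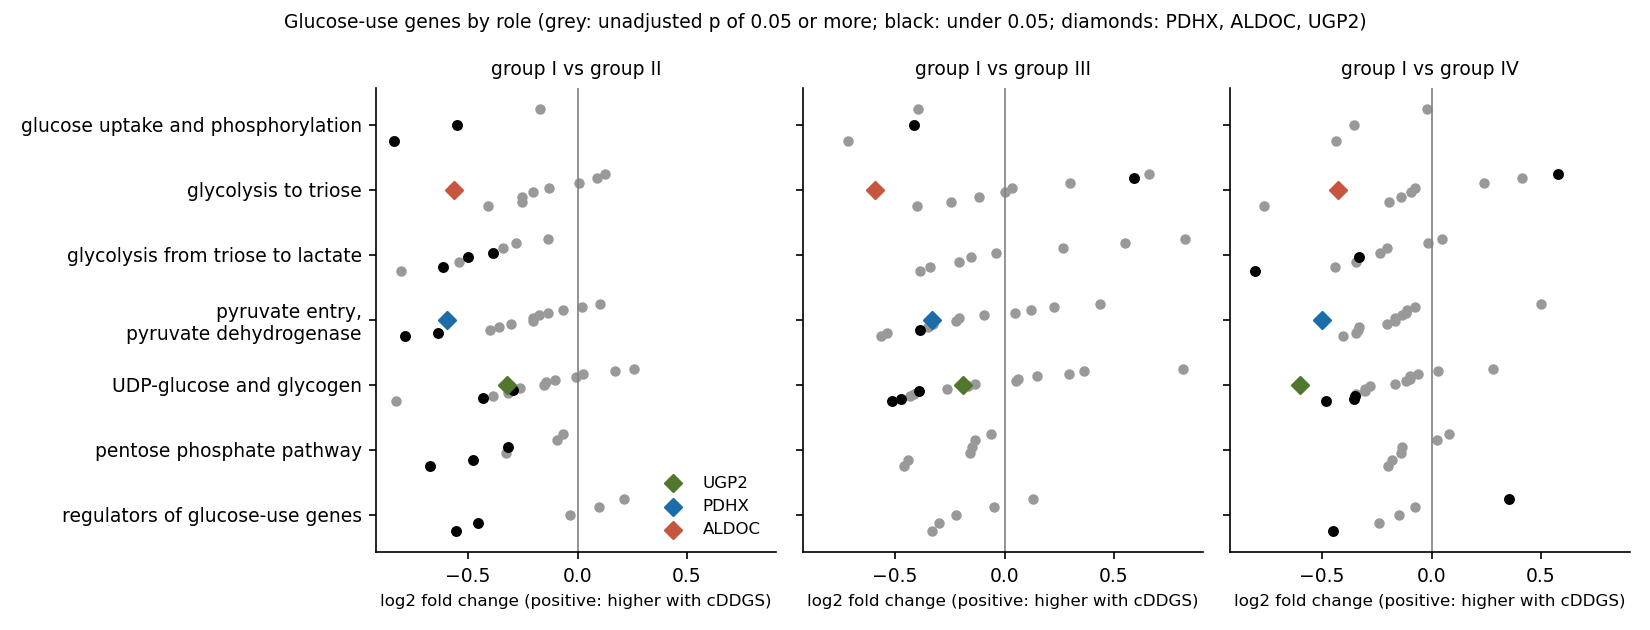
Log2 fold changes of the glucose-use genes tested by edgeR, by role, in groups II, III and IV against group I (negative: lower with cDDGS). Each grey or black point is a gene of the list, black with an unadjusted p under 0.05, and diamonds are PDHX, ALDOC and UGP2; none of the list genes passed the adjusted p limit, and in group II 45 of 55 lie below 0.

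The partners of PDHX in the pyruvate dehydrogenase complex had negative values throughout. In group II the log2 change from group I was -0.40 (SE 0.20) for PDHA1, a subunit of the catalytic E1 component, -0.79 (SE 0.24) for PDHB, the other E1 subunit, -0.64 (SE 0.20) for DLAT, the E2 core, and -0.36 (SE 0.22) for DLD, the E3 component that PDHX anchors. In group III they were -0.35 (SE 0.21), -0.57 (SE 0.38), -0.54 (SE 0.26) and -0.33 (SE 0.22), in the same order. In group IV they were -0.13 (SE 0.17), -0.34 (SE 0.25), -0.41 (SE 0.22) and -0.33 (SE 0.19). In the combined groups the values were -0.30 (SE 0.17) for PDHA1, -0.57 (SE 0.25) for PDHB, -0.53 (SE 0.18) for DLAT and -0.34 (SE 0.16) for DLD, with edgeR adjusted p between 0.154 and 0.388. With the share of reads outside genes as a covariate they were closer to 0, at -0.13, -0.33, -0.36 and -0.17. With RIN as a covariate they were farther from 0, at -0.41, -0.76, -0.63 and -0.45. The mean of PDHB was 436 CPM ± 160 (SD, n = 7) in group I and 252 ± 69.0 (n = 6) in group II, so that the groups differed by more than 1 SD of either without passing the adjusted test. PDK4, a kinase that switches the complex off, had a value of -0.31 (SE 0.25) in group II but 0.44 (SE 0.24) in group III and 0.50 (SE 0.24) in group IV. Of the 12 genes of this role that were tested, 2 were lower at an unadjusted p under 0.05 in group II (16.7%, against 13.0% of all genes) and 4 in the combined groups (33.3%, against 15.8%), and 0 were higher. In group III 1 was lower (8.33%, against 7.96%) and in group IV 0 were (against 14.2%), and 0 were higher in either.

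Among the enzymes next to ALDOC, the values differed between steps of the pathway. The hexokinases HK1 and HK2, which trap glucose in the cell, had log2 changes of -0.55 (SE 0.15) and -0.84 (SE 0.27) in group II and of -0.44 (SE 0.14) and -0.66 (SE 0.25) in the combined groups (edgeR adjusted p = 0.135 and 0.203). FBP2, the fructose bisphosphatase that works against glycolysis, had 0.13 (SE 0.19) in group II, 0.59 (SE 0.21) in group III and 0.58 (SE 0.14) in group IV (edgeR adjusted p = 0.811, 0.555 and 0.135). Its level was 22.7 CPM ± 4.40 (SD, n = 7) in group I and 34 ± 3.36 (n = 5) in group IV. GAPDH, which acts on the triose phosphates that aldolase makes, had -0.62 (SE 0.18) in group II, -0.15 (SE 0.25) in group III and -0.80 (SE 0.20) in group IV (edgeR adjusted p = 0.224, 0.923 and 0.135), a value that was -0.98 and passed the adjusted limit without pig 53. PGK1, the next enzyme, had -0.40 (SE 0.13) in the combined groups (edgeR adjusted p = 0.136). LDHA, which makes lactate, was at -0.03 (SE 0.32) there, with a sign that depended on the pigs included. Of the 8 tested genes between glucose 6-phosphate and the trioses, 4 had a negative value in the combined groups, with a median of -0.05. From triose to lactate, 8, 5 and 7 of the 8 tested were negative in groups II, III and IV. In the combined groups 7 of these were negative, with a median of -0.15. There 3 were lower at an unadjusted p under 0.05 (37.5%, against 15.8% of all genes). The 3 tested genes of glucose uptake and phosphorylation, HK1 and HK2 among them, were negative in all 3 groups.

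Near UGP2, GYS1, GBE1 and UGDH had negative values in all 3 groups with cDDGS. Of the genes of this role that were tested, 10 of 13 were negative in group II, 8 of 14 in group III and 12 of 14 in group IV. Of all genes tested, 49.6%, 49.2% and 52% were negative in the same order. GYS1, a glycogen synthase, had a log2 change of -0.26 (SE 0.13) in group II, -0.39 (SE 0.16) in group III and -0.35 (SE 0.14) in group IV. GBE1, the glycogen branching enzyme, had -0.43 (SE 0.17), -0.51 (SE 0.19) and -0.35 (SE 0.16) in the same order. UGDH, which oxidizes UDP-glucose to UDP-glucuronate, had -0.15 (SE 0.14), -0.47 (SE 0.17) and -0.48 (SE 0.16). None passed the adjusted limit, and in the combined groups the edgeR adjusted p was 0.136 for GYS1, 0.138 for GBE1 and 0.19 for UGDH. GYG1, the glycogenin that primes glycogen, was at 0.00 (SE 0.21) in the combined groups, with a sign that changed under the other size factors. GYS2, the other glycogen synthase, named after its values were seen, had -0.01 (SE 0.32) in group II, 0.29 (SE 0.32) in group III and -0.28 (SE 0.34) in group IV. Of the 14 genes of this role tested in the combined groups, 4 were lower at an unadjusted p under 0.05 and 0 were higher, or 28.6% against 15.8% of all genes.

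In the pentose phosphate pathway, TALDO1, the transaldolase, had -0.37 (SE 0.17) in the combined groups (edgeR adjusted p = 0.294). All 6 tested genes of this pathway had a negative value in group II, where 49.6% of all genes did, and 3 of them had an unadjusted p under 0.05 (50%, against 13.0% of all genes). In groups III and IV, 6 and 4 of the 6 were negative, and 0 had an unadjusted p under 0.05 (all genes 7.96% and 14.2%). MLXIPL, which encodes ChREBP, the transcription factor that responds to glucose, had a mean of 110 CPM ± 16.1 (SD, n = 7) in group I and 75.1 ± 22.0 (n = 6) in group II. Its log2 change was -0.56 (SE 0.16) in group II, -0.30 (SE 0.14) in group III, -0.24 (SE 0.13) in group IV and -0.37 (SE 0.13) in the combined groups (edgeR adjusted p = 0.179). The fat cell marker CIDEC also had negative values, of -0.44 (SE 0.17), -0.42 (SE 0.18) and -0.38 (SE 0.17) in groups II, III and IV, while PLIN1 had -0.12 (SE 0.15), -0.14 (SE 0.12) and -0.06 (SE 0.11). The macrophage marker MRC1 had positive values, of 1.18 (SE 0.32), 0.58 (SE 0.38) and 0.59 (SE 0.37). The part of these cell markers in the values of the glucose-use genes was not tested.

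Between the groups with cDDGS, 3 of 55 list genes had an unadjusted p under 0.05 in group II vs group III (5.45%, against 6.22% of all genes). In group II vs group IV there were 7 of 54 (13%, against 4.99% of all genes), 6 of them higher and 1 lower in group IV. In group III vs group IV there were 4 of 55 (7.27%, against 4.12% of all genes). DESeq2 called 0 list genes in each of these, against 0.301%, 0.0116% and 0% of all genes. Between the sexes, 17 of 55 list genes were lower and 2 higher in females at an unadjusted p under 0.05, or 34.5% of the list against 17.7% of all genes, and edgeR called 0 of them. DESeq2 called PKM, pyruvate kinase, lower and IRS1, an insulin receptor substrate, higher in females, both named after their values were seen, against 2.57% of all genes. When each pig was left out, from 11 (without pig 43) to 24 (without pig 5) list genes were lower. The partners of PDHX were lower in females too, by -0.35 (SE 0.14) for PDHA1 and -0.55 (SE 0.22) for PDHB. DLAT had -0.38 (SE 0.16) and DLD -0.42 (SE 0.13), and the edgeR adjusted p of these partners lay between 0.113 and 0.216. Forms of glycolytic enzymes best known from muscle had large negative values in females, chosen here after their values were seen: -2.39 (SE 0.76) for ENO3, -2.05 (SE 0.72) for PGAM2, -1.06 (SE 0.39) for PFKM and -2.29 (SE 0.84) for PYGM, the muscle glycogen phosphorylase, with edgeR adjusted p between 0.123 and 0.169. The muscle marker ACTA1 had a median of 32.6 CPM in 12 females and 222 in 11 males, with a log2 difference of -2.57 (SE 0.95, edgeR adjusted p = 0.169), and its part in these values was not tested.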

How the data were processed

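Backfat RNA of 23 pigs was measured by RNA-seq. According to the paper, undegraded RNA could not be had from these samples, and a library kit that accepts RNA of reduced integrity was chosen for this reason. The authors made stranded total RNA libraries after rRNA depletion and sequenced single-end reads in 2 replicates on 1 flow cell (how these were merged is not given in the sources used here), used TopHat for mapping, and took gene counts from HTSeq. The deposited values are raw counts for 25322 genes per pig; 5 summary rows were left out of library sizes and tests, and the share of reads outside genes was taken from them. The paper names Sus scrofa 11.1, but the identifiers resemble an older set, so no coordinates are given. Symbols came from a reference table that named 11804 identifiers. Read depth was 2437172 to 7979426 per pig.

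Counts were tested with edgeR 4.0.16 in R 4.3.3 (TMM, filterByExpr, quasi-likelihood test, Benjamini-Hochberg), with calls at adjusted p under 0.05 and fold change above 1.3, the limits of the study, which used DESeq2; DESeq2 1.42.0 was an alternative. A pseudocount of 0.5 CPM was used on the log2 scale for correlations, which were permuted 1e+05 times within groups. RIN came from the study's sample list. Scripts were tested on simulated data. No 2 pigs of a group differed by as little as counting noise (smallest chi-square per degree of freedom 7.02 over 56 pairs). Nothing in the sources pairs pigs between groups.

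The genes and lists were chosen with earlier results of these data known. Named were the 3 enzymes, list genes called by edgeR (none), their partner genes (one of which is not reported here), the gene with the smallest unadjusted p per role in the combined comparison, and the 5 genes most like each enzyme by rho. Genes and markers outside this rule (CIDEC, PLIN1, MRC1, ACTA1, PKM, IRS1, ENO3, PGAM2, PFKM, PYGM and GYS2) were named as markers or after their values were seen. Of 30 marker genes listed, 13 had an identifier.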

Additional observations from a re-analysis of the deposited data

How the results depend on the processing

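Of 504 alternative values for the enzymes' 24 log2 fold changes, 502 kept their direction where tested, or moved by less than the spread between pigs. The exceptions were ALDOC in group II vs group IV, which ran from -0.14 (without pig 53) to 0.26 when each pig was left out, and UGP2 in group II vs group III, which was -0.0177 with the share of reads outside genes as a covariate. Among the untested values near 0, others changed sign as well when a pig was left out: ALDOC in group III vs group IV (-0.11 without pig 53), ALDOC in group II vs group III (0.11 without pig 21, and 0.007 with that covariate) and PDHX in group II vs group IV (-0.007 without pig 53). The correlation of PDHX and ALDOC was 0.58 without 2 pigs. Calls over all genes depended on the test: DESeq2 gave 95 in group I vs group II (edgeR 3), 13 in I vs III, 151 in I vs IV, 160 in I vs combined, 29 in II vs III and 2 in II vs IV (edgeR 0 in each), and 254 between the sexes (edgeR 98). In group I vs group II the count was 0 with RIN, with the outside-gene share or with all 23 pigs in 1 fit, and 5 with sex as a covariate. With no filter on low counts it was 1 in I vs III, 2 in I vs combined, 4 in II vs III and 158 between the sexes. It was 1 with RIN in II vs III and II vs IV, 1 with sex in II vs IV, 1 with the outside-gene share in III vs IV, and 57 between the sexes with RIN or with that share. Leaving out each pig gave 0 to 17 calls in I vs II (17 without pig 1), 0 to 1 in I vs III, 0 to 116 in I vs IV (116 without pig 53), 0 to 43 in I vs combined (43 without pig 1), 0 to 5 in II vs III and 33 to 187 between the sexes. From the glucose-use list DESeq2 called 1 gene in I vs II, 2 in I vs IV and 2 between the sexes, where no filter gave 1. Leaving out pigs gave 0 to 3 list genes between the sexes and 0 to 1 in I vs IV. In the combined comparison LDHA was 0.13 with RIN and 0.0628 with the outside-gene share (-0.22 to 0.22 leaving out pigs), and GYG1 was 0.0256 with RIN, 0.00281 with RLE size factors and 0.00148 with that share (-0.11 to 0.10 leaving out pigs). Of 580 values for the named list genes, chosen after seeing the data like the 2 added correlation settings, 553 kept their direction and side of the limit. The cause of these changes was not tested. With these depths, genes of a few CPM rest on few reads.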

Other observations

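Several genes of glucose use could not be followed in these counts. TPI1, the triose phosphate isomerase next to aldolase in glycolysis, was listed at 0 reads in all 23 pigs, and SLC2A4, the insulin-responsive glucose transporter of fat cells, was at 0 CPM in every pig of groups I and IV and at a mean of 0.154 CPM in group II and 0.0309 in group III. As every cell uses TPI1, a value of 0 here says only that no reads were counted on that identifier. Another 14 of the 82 listed genes had no identifier in the reference table and were not analysed here.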
